A study of Mus musculus with 13 samples.

Results

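Of the 5876 intervals that TCF1 ChIP-seq marked in wild-type regulatory T cells, 291 overlapped no ATAC-seq peak in any of 5 libraries, which is 4.95% of the list. Members were chosen by that rule alone, with an overlap of 1 bp in any 1 library enough to leave an interval out, so their lack of overlap is the rule and not a finding. A further 940 TCF1 peaks overlapped a peak in 1 to 4 of the ATAC lists, and 4645 overlapped a peak in all 5. Every TCF1 peak was 142 bp wide, and positions are on mm10.

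The cells were YFP+ CD25+ regulatory T cells sorted from CD4 T cells of male C57BL/6 mice. Both genotypes carried Foxp3Cre-YFP, which expresses Cre recombinase and YFP in Foxp3-expressing cells. WT mice carried Foxp3Cre-YFP alone, and CAT mice carried Foxp3Cre-YFP with Ctnnb1flex3, an allele from which Cre removes the exon that marks β-catenin for degradation. For RNA-seq there were 3 libraries of each genotype, and for ATAC-seq 3 of WT and 2 of CAT, from lymph nodes of mice 21 days old. TCF1 binding came from 1 WT library of lymph nodes and spleen of mice aged 10 to 12 weeks, so binding in CAT cells was not measured and the TCF1 and ATAC data differ in age and tissue. No label ties replicates to separate animals, so the tests below reflect spread among libraries that could be technical only. The series asks how β-catenin activation changes regulatory T cells.

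TCF1, encoded by Tcf7, is a high-mobility-group factor of T cells that binds DNA holding the letters CTTTG and recruits β-catenin or co-repressors. It sustains the resting and memory programs of T cells and takes part in T cell development in the thymus. ATAC-seq marks open chromatin by where a transposase can insert adapters, and most binding of transcription factors is found in such open sites. A factor peak with no ATAC peak can be a site in closed chromatin, at the flank of an open site or below the calling threshold. Peak lists give no signal for open chromatin at the site, so these cases cannot be told apart from the files used. Each case takes the TCF1 peak as a bound site. That was not tested, as there was 1 TCF1 library with no replicate and the input was not analysed.

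The RNA libraries held 24124077 to 31527246 assigned fragments, and the first principal component, at 82.8% of the variance, separated the genotypes. Ctnnb1, the targeted gene, stood at 135, 144 and 144 FPKM in WT1, WT2 and WT3 and 129, 122 and 145 FPKM in CAT1, CAT2 and CAT3 (FPKM is fragments per kilobase of transcript, scaled by library size). The groups overlapped, the log2 change of -0.10 ± 0.09 did not pass (adjusted p = 0.388, edgeR), and a gene-level value does not show whether the exon was removed. Tcf7, which encodes TCF1, stood at 77.8, 67.8 and 73.9 FPKM in WT and 31.4, 33.3 and 65.3 FPKM in CAT, with CAT3 close to the WT libraries and no overlap. Its log2 change was -0.76 ± 0.26 (adjusted p = 0.0331, edgeR). Without CAT replicate 3 it was -1.21, and the call was lost without any 1 of the other 5 libraries, in DESeq2 and in limma, with adjusted p of 0.0531 to 0.110. Of 6 listed T cell markers 5 were measured, and Cd3d, Cd3e, Cd4, Foxp3 and Il2ra were detected in every library. The summed FPKM of 5 CD8 T and NK markers was 6.26 to 8.53 in WT and 19.9 to 24.7 in CAT, mostly Cd8b1, with Cd8a at 0.389 or less. The sum of 5 B cell markers was 15.6 to 19.4 in WT and 5.32 to 9.96 in CAT, mostly Cd79b, with Pax5 at 0 in 5 of the libraries. The sum of 5 myeloid markers was 8.51 to 12.8 in WT and 1.54 to 2.73 in CAT, with Cd14 at 0 in all CAT libraries. Lyz2 made up most of the WT sums and stood at 7.55 to 11.2 FPKM in WT and 0.632 to 1.40 FPKM in CAT, while Itgam stood at 0.202 to 0.235 FPKM in WT and 0.638 to 1.09 FPKM in CAT. The sum of 4 erythroid markers was 0.526 to 0.682 in WT and 2.35 to 3.11 in CAT, with Hba-a1 at 0 in all WT libraries. The part of these marker differences in the gene results below was not tested, and in bulk RNA fewer cells of a type and less RNA per cell cannot be told apart.

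Sequence could be read where a member fell in a RefSeq promoter window of GRCm38.p6, the assembly behind mm10, which spans 250 bases before to 50 bases after an annotated gene start. Runs of at least 20 bases before a gene start could be read for 7 members. The 4 with the longest runs are shown, because they let a reader see which members hold the TCF letters, and the shorter runs at Tesc, Kat2b and Gm42376 held none. Bases are 5′ to 3′ on the gene's strand, and capitals mark CTTTG or its reverse complement CAAAG. The whole member is printed for Kmt2d and Traf1, and for Fmnl1 and Acsf3 the part before the gene start in that gene's window.
Kmt2d, chr15:98871261-98871402, minus strand: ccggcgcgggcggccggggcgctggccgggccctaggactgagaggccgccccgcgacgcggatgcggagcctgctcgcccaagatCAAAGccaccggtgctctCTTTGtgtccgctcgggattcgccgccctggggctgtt
Traf1, chr2:34961838-34961979, minus strand: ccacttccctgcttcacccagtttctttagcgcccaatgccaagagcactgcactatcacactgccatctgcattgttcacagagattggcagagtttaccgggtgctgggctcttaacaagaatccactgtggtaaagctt
Fmnl1, chr11:103170888-103170971, plus strand: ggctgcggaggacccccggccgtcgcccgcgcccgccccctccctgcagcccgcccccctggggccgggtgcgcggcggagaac
Acsf3, chr8:122775402-122775485, plus strand: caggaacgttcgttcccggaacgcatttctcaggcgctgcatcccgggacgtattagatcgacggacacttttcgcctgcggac
Only the Kmt2d sequence of these held the letters, on both strands, and 1 of its 2 matches was the longer ATCAAAG. The member at Acsf3 also lay wholly in the window of Gm39271, a gene on the opposite strand, so 3 members lay wholly in a window, and 1 of the 3 held CTTTG on either strand (33.3%). The letters were in 274 of 1278 TCF1 peaks inside ATAC peaks and wholly in such a window (21.4%), and in the middle 142 bases of 31.1% of all 32815 windows. The longer forms CTTTGAA and CTTTGAT were in 3.29% of those peaks and 4.16% of windows. A match is a description of letters, and with 3 members no share can be read from them.

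Most members lay close to open chromatin without touching it. The median distance to the nearest ATAC peak was 910 bp, and the quartiles were 157.5 and 2577.5 bp. Of the 291 members 29 were within 50 bp, 147 (50.5%) within 1000 bp and 263 (90.4%) within 4000 bp. At the edge of the rule, 3 members lay 2 bp from an ATAC peak and 8 lay within 10 bp. On its other side, 8 other TCF1 peaks were kept out of the set by an overlap of at most 10 bp, the smallest being 1 bp. The nearest members are thus divided from the rest of the TCF1 list by a few bases of a called boundary.

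**Figure D1:**
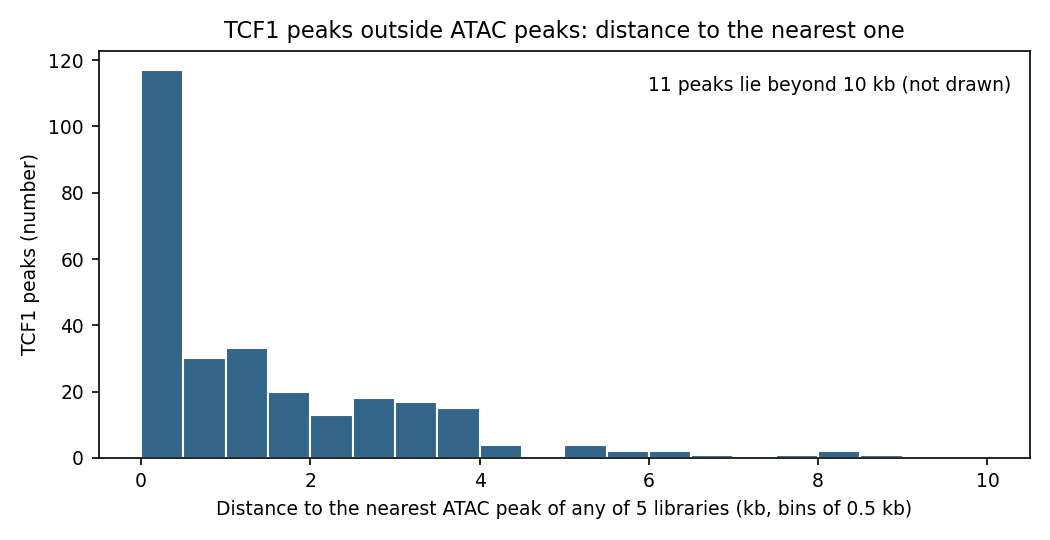
Number of TCF1 peaks outside ATAC peaks (y) by distance to the nearest ATAC peak of any of the 5 libraries (x, kb). The first bar holds the 117 members within 500 bp, counts fall from 32 between 3001 and 4000 bp to 4 between 4001 and 5000 bp, and 11 members beyond 10 kb are not drawn.

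The count of members per distance step fell at about 4000 bp. The step from 3001 to 4000 bp held 32 members, while the step from 4001 to 5000 bp held 4 and the steps from 5001 to 10000 bp held 13 in all. The zone within 4000 bp of an ATAC peak covered 340 Mb, or 13.1% of the sequence between the first and last genes of the placed chromosomes, and held 259 of the 284 members placed there (91.2%). The zone within 1000 bp covered 4.54% and held 145 (51.1%).

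The distances differed between the lists of the genotypes. The median distance from a member to the nearest peak was 1238.5, 1350.5 and 1653 bp in WT1, WT2 and WT3, and 1978 and 2013.5 bp in CAT1 and CAT2, so both CAT values lay above all WT values. The CAT lists were also shorter and their peaks narrower, with 27129 and 29548 peaks of median width 254 bp against 33204 to 41197 peaks of 384 to 399 bp in WT. The part of list length and width in the distances was not tested. Of all TCF1 peaks, 319 lay outside the 3 WT lists and 835 outside both CAT lists.

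The nearest open region of a member was most often one shared by the libraries. When the 5 lists were joined into 49014 regions, 40.4% of them had a peak in all 5 libraries, and for 158 members (54.3%) the nearest region was of this kind. For 78 members it was called in WT lists only, for 27 in CAT lists only, and for 49 in a single library. The shares of these kinds over all regions were not counted, and there were 3 WT lists against 2 shorter CAT lists. The nearest region held an annotated gene start for 72 members (24.7%), against 19.0% of all regions. It held a TCF1 peak of its own for 80 members (27.5%), against 10.4% of all regions that held a TCF1 peak centre.

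Members lay less often within 1 kb of gene starts than TCF1 peaks in open chromatin did, and within 5 kb only the peaks in all 5 lists stood apart. Of the 280 members with an annotated start on their chromosome, 43 (15.4%) lay within 1 kb of it, against 25.3% of TCF1 peaks in 1 to 4 ATAC lists and 63.0% of those in all 5. The median distance to the nearest start was 6680 bp for members, 6695 bp for peaks in 1 to 4 lists and 220 bp for peaks in all 5. The table of starts is not complete, holding 79.9% of protein-coding genes, so the distances are upper limits. Within 5 kb lay 45.4% of members, 45.6% of peaks in 1 to 4 lists and 69.4% of those in all 5. A share of 40.0% of members lay 1 to 10 kb from a start, against 31.2% of peaks in 1 to 4 lists and 11.2% of peaks in all 5. Over 50 kb away were 16.8% of members, 14.4% of peaks in 1 to 4 lists and 9.42% of peaks in all 5. Of the members, 172 (59.1%) were inside a gene of the RNA table, close to the 58.8% of peaks in 1 to 4 lists and below the 69.4% of peaks in all 5. These are shares of peaks of 1 ChIP library, with no replicate of the TCF1 data, and the rule that split the peaks is itself a measure of open chromatin, which gene starts have, so no test was run on them.

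**Figure D2:**
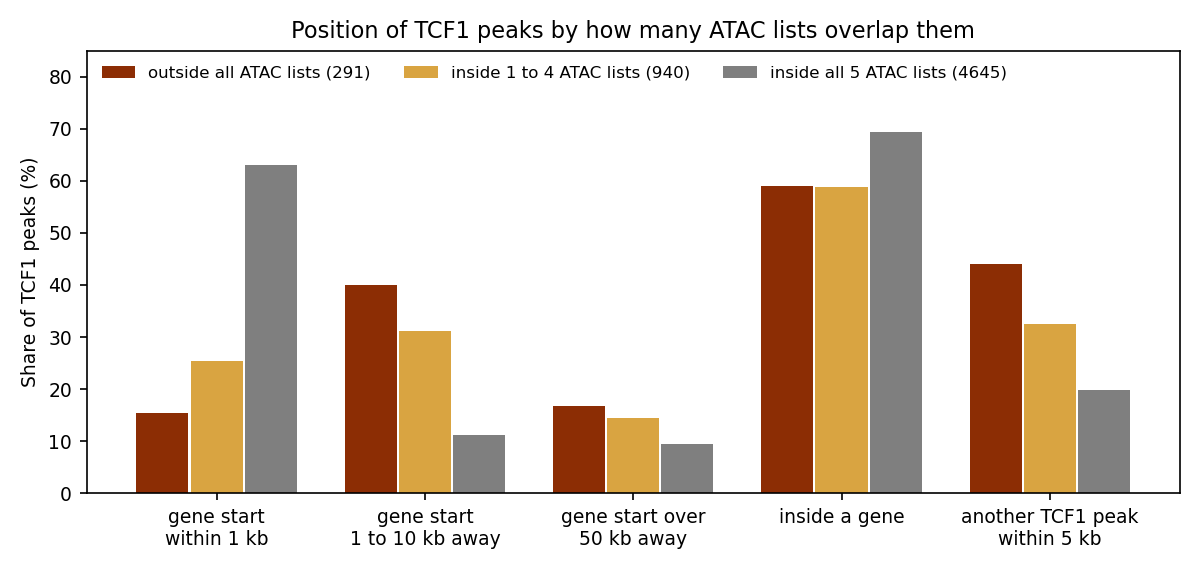
Share of TCF1 peaks (y, %) at 5 kinds of position, for peaks outside all ATAC lists (291), inside 1 to 4 (940) and inside all 5 (4645). Bars for gene starts within 1 kb rise from 15.4% to 25.3% and 63.0% across the classes, and those for another TCF1 peak within 5 kb fall from 44.0% to 32.4% and 19.9%.

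Other TCF1 peaks were near many of the members. The median distance to the next TCF1 peak was 6779.5 bp for members, 16031 bp for peaks in 1 to 4 lists and 41139.5 bp for peaks in all 5. Another TCF1 peak was within 5 kb of 128 members (44.0%), against 32.4% and 19.9% of the other classes. Members also lay beside each other, as 39 of them formed 17 groups with steps of at most 10 kb. Groups of 3 lay at chr7:24363350-24378021, of which 2 were inside Kcnn4, the calcium-activated potassium channel of T cells, at chr7:126693304-126701301 near Bola2 and Coro1a with 1 of the 3 inside Coro1a, and at chrX:7566925-7572546 upstream of Foxp3. The group of 4 lay on an unplaced scaffold.

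Members were on all 20 chromosomes with at least 50 TCF1 peaks, which are the autosomes and X. Among these the share of a chromosome's TCF1 peaks that were members ran from 1.97% on chromosome 16 (4 of 203) to 10.0% on X (7 of 70), with a median of 4.80%. Of the 7 members on X, 3 formed the group upstream of Foxp3. The single TCF1 peak on Y was not a member. Chromosome 11 held the most, with 38 of 528 (7.20%), followed by chromosome 7 with 25 of 375 (6.67%). On unplaced scaffolds 7 of 11 TCF1 peaks were members.

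The 5 members farthest from any ATAC peak lay 31956 to 173421 bp away. The farthest was chrX:161363880-161364021, with no gene of the RNA table within 5 kb, and the next was on chromosome 18 at 144145 bp, also with no such gene. The third, chr9:65133903-65134044, was 54690 bp away and inside Igdcc4. The fourth, chr8:126538807-126538948, was 40804 bp away, with no such gene within 5 kb. The fifth, chr2:157808632-157808773, was 31956 bp away and inside Ctnnbl1, the gene of a spliceosome-associated protein that resembles β-catenin in its repeats.

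At Foxp3, the gene of the factor that defines regulatory T cells, 3 members lay upstream of the start and inside Ppp1r3f, which encodes a regulatory subunit of protein phosphatase 1. They were chrX:7566925-7567066, chrX:7570846-7570987 and chrX:7572405-7572546, which ended 12610, 8689 and 7130 bp before the Foxp3 start. The first lay between a pair of ATAC peaks called in all 3 WT lists, 257, 319 and 274 bp from the nearest in WT1, WT2 and WT3, while in CAT1 and CAT2 the nearest peak was 7109 and 7056 bp away. The other members here had similar distances in all 5 libraries, 2985 to 3188 bp for the second and 1426 to 1653 bp for the third. Within the Foxp3 gene 1 further TCF1 peak lay 4140 to 4281 bp after the start, and it overlapped an ATAC peak in WT1 only. In WT2 and WT3 an ATAC peak began just past its end, at 4294 and 4293 bp after the start. Neither CAT list had a peak there, and the next one in CAT2 began at 6826 bp. None of the 5 TCF1 peaks within 50 kb of Foxp3 was open in all 5 lists.

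**Figure D3:**
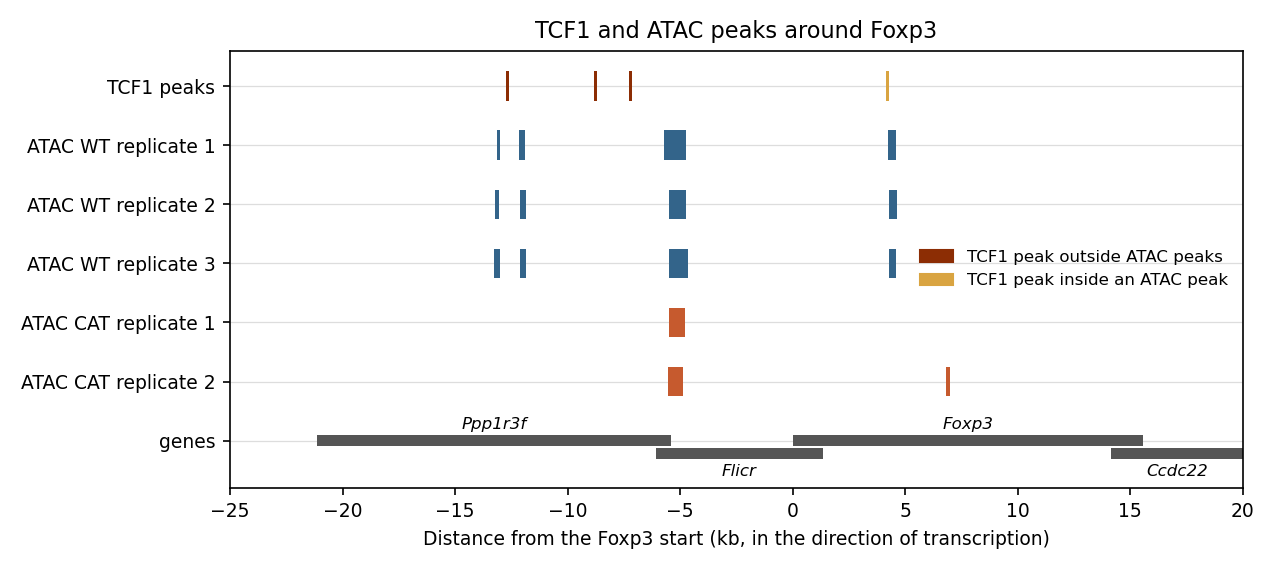
TCF1 peaks, ATAC peaks of each library and gene spans (rows) by distance from the Foxp3 start (x, kb, positive in the direction of transcription). All 3 WT lists have a pair of peaks on either side of the member that ends 12610 bp before the start, and neither CAT list has a peak there.

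Foxp3 RNA stood at 23.7, 29.4 and 31.3 FPKM in WT1, WT2 and WT3 and at 44.0, 41.2 and 44.2 FPKM in CAT1, CAT2 and CAT3. The CAT libraries were all above the WT libraries. The log2 change in CAT was 0.59 ± 0.11 (SE, n = 3 per genotype, edgeR quasi-likelihood test with Benjamini-Hochberg adjustment over all genes, adjusted p = 0.00221). Ppp1r3f stood at 10.6, 7.42 and 8.34 FPKM in WT and 12.0, 9.99 and 10.2 FPKM in CAT, and the groups overlapped. Its log2 change was 0.34 ± 0.09 (adjusted p = 0.0111, edgeR), a call lost without WT replicate 2 and in limma on FPKM, with adjusted p of 0.0579 to 0.185, and its span overlaps the long noncoding RNA gene Flicr.

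Genes near the members were expressed in WT cells in most cases. A gene of the RNA table lay within 5 kb of 229 members (78.7%), and these were 247 genes, of which 225 had 1 member, 19 had 2 and 3 had 3. Of the 247 genes 219 (88.7%) had a WT mean of at least 1 FPKM, against 86.5% of 5037 genes with TCF1 peaks in ATAC peaks only and 34.2% of 17847 genes with no TCF1 peak. A mean of at least 100 FPKM was found in 38 (15.4%), against 8.12% of genes with TCF1 peaks in ATAC peaks only. The median over the genes near members was 23.6, 22.6 and 22.6 FPKM in WT1, WT2 and WT3 and 22.3, 20.8 and 23.0 FPKM in CAT1, CAT2 and CAT3, so the genotypes overlapped. For genes with TCF1 peaks in ATAC peaks only it was 15.4, 15.6 and 15.6 FPKM in WT.

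Among genes near members, those that also had an open TCF1 peak had the higher median level. Of the 247 genes 155 (62.8%) also had a TCF1 peak inside an ATAC peak, and their median was 30.7, 31.0 and 32.7 FPKM in the WT libraries. The 92 genes with no other TCF1 peak had medians of 11.5, 11.6 and 11.0 FPKM, below those of genes with TCF1 peaks in ATAC peaks only. Distance to open chromatin did not order the levels, since the median WT level was 21.2 FPKM for genes of members within 100 bp, 23.2 FPKM from 101 to 1000 bp, 30.9 FPKM from 1001 to 2000 bp, 26.6 FPKM from 2001 to 4000 bp and 25.4 FPKM beyond. These medians describe genes and carry no test. Genes with both kinds of peak have more than a single TCF1 peak by definition, so an open peak and the number of peaks cannot be told apart.

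**Figure D4:**
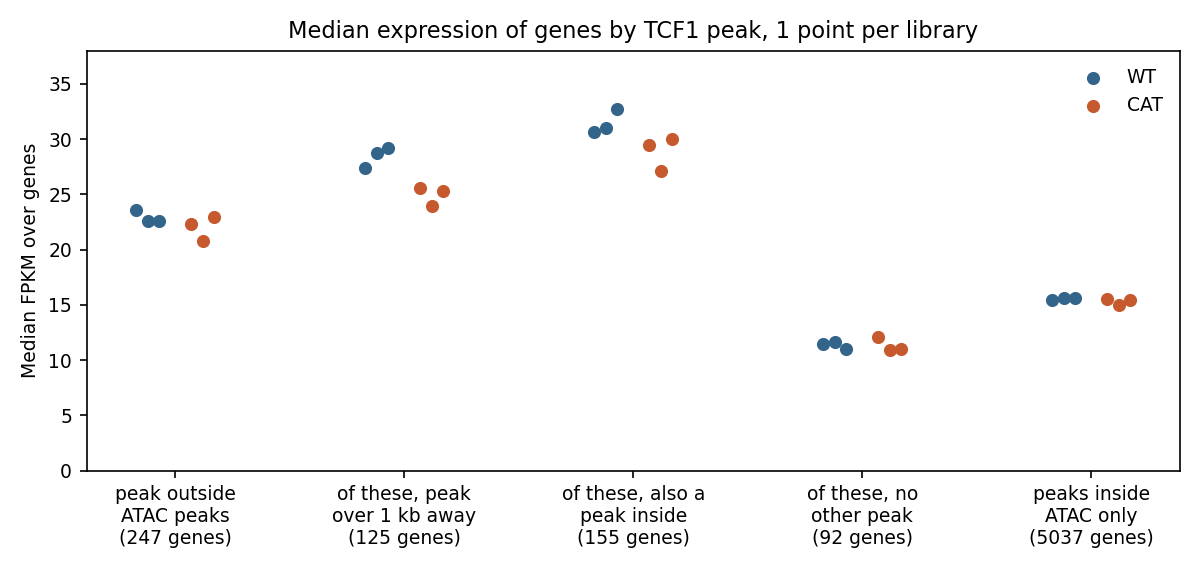
Median FPKM over genes (y) in each RNA library (points, 3 WT and 3 CAT) for genes grouped by where their TCF1 peaks lie (x). Genes near members sit at 20.8 to 23.6 FPKM, those with no other TCF1 peak lowest, and genes with TCF1 peaks in ATAC peaks only at 15.0 to 15.6 FPKM.

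Genes near members changed in CAT in both directions and about as often as genes at large. Of 13193 genes tested 25.5% rose and 23.5% fell in CAT by edgeR at an adjusted p below 0.05, and of the 230 tested genes near members 59 rose (25.7%) and 64 fell (27.8%). The median log2 change was 0.01 over these 230 genes and 0.00 over all genes tested. Changes of at least 1 on the log2 scale were found in 17 of the 230 that rose (7.39%, against 10.5% of all genes tested) and in 14 that fell (6.09%, against 6.84%). A share near the background is not a result about the members. The other 17 of the 247 genes had too few counts to be tested. Genes with overlapping spans could also share fragments, and 110 of the 247 spans overlap another gene. The share of such spans over all genes was not counted.

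Among genes of resting T cells and lymphoid homing, 5 of the 11 listed had a member within 5 kb, as did 247 of 23131 genes with a RefSeq span. Of the 5 listed genes Bach2, S1pr1, Klf2 and Foxp1 fell and Satb1 rose. Of the whole list, 7 fell and 3 rose of 11 tested, with a median log2 change of -0.61. Over all genes tested 23.5% fell and 25.5% rose. All the genes of this list but 1 had a TCF1 peak inside an ATAC peak. The list was drawn up with results of these data known, so its count is a description. Below, a distance to an ATAC peak given without a library is the smallest over the 5 lists, and other lists could lie farther.

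Bach2, a repressor that limits effector differentiation of T cells, had 3 members inside its span and 9 TCF1 peaks in ATAC peaks. The members were chr4:32249573-32249714, chr4:32342570-32342711 and chr4:32401328-32401469. The last lay 55 and 61 bp from an ATAC peak in WT1 and WT2 but 4329 bp in WT3, 22352 bp in CAT1 and 22326 bp in CAT2. Bach2 stood at 5.88, 8.03 and 8.21 FPKM in WT and 1.72, 1.99 and 4.04 FPKM in CAT, with no overlap. Its log2 change was -1.53 ± 0.26 (adjusted p = 0.00115, edgeR), and its antisense neighbour Bach2os overlaps it.

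S1pr1, the sphingosine 1-phosphate receptor for exit from lymphoid organs, had a member at chr3:115706482-115706623, beside the gene. The member lay 163 bp from an ATAC peak in WT1, 1636 bp in WT3 and 5439 bp or more in the other lists. S1pr1 stood at 159, 171 and 171 FPKM in WT and 70.3, 78.0 and 103 FPKM in CAT. Klf2, a zinc finger factor that induces S1pr1, had one downstream at chr8:72322630-72322771, 3114 bp from an ATAC peak. Klf2 stood at 64.6, 35.4 and 38.9 FPKM in WT and 27.4, 18.8 and 20.4 FPKM in CAT. All CAT libraries were below all WT libraries for both genes. The log2 changes were -1.03 ± 0.13 for S1pr1 (adjusted p = 2.06e-04, edgeR) and -1.01 ± 0.10 for Klf2 (adjusted p = 5.16e-05, edgeR).

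Foxp1, a forkhead factor of T cell quiescence, had a member upstream at chr6:99525520-99525661, 1939 bp from an ATAC peak. Foxp1 fell from 31.0, 44.1 and 42.6 FPKM in WT to 19.6, 22.4 and 25.7 FPKM in CAT, with a log2 change of -0.84 ± 0.11 (adjusted p = 2.70e-04, edgeR). Satb1, a chromatin organiser of T cells, had one upstream at chr17:51833883-51834024, 113 bp from an ATAC peak. Satb1 rose from 43.0, 56.2 and 49.2 FPKM in WT to 74.7, 82.4 and 81.4 FPKM in CAT, with a log2 change of 0.68 ± 0.08 (adjusted p = 1.73e-04, edgeR). The groups did not overlap for either gene.

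Ccr7, the chemokine receptor for entry to lymph nodes, had no member within 5 kb but 4 within 50 kb, a distance set after the values were seen. They lay 11393, 12988, 19960 and 45073 bp from its span, and the one at chr11:99131070-99131211 was 29 bp from an ATAC peak in WT1 and 5270 bp or more in the other lists. Ccr7 stood at 161, 142 and 164 FPKM in WT and 266, 239 and 296 FPKM in CAT, so all CAT libraries were higher. Its log2 change was 0.78 ± 0.13 (adjusted p = 9.65e-04, edgeR). Of the 7 TCF1 peaks within 50 kb of Ccr7, 3 were inside all 5 ATAC lists.

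Of 24 listed T cell transcription factors 4 had a member within 5 kb, as did 247 of 23131 genes with a RefSeq span. Of these 4, Rora and Ets1 rose, Tox fell and Bcl11b did not pass. A TCF1 peak inside an ATAC peak was found for 15 of the 24 listed. Of the 23 tested, 14 rose and 7 fell, with a median log2 change of 0.32, against 25.5% and 23.5% of all genes tested that rose and fell. Tox, a high-mobility-group factor of T cell development and exhaustion, stood at 17.8, 19.8 and 19.0 FPKM in WT and 2.38, 3.13 and 5.47 FPKM in CAT, with no overlap. Its member, chr4:6989851-6989992, was inside the gene and 29 bp from an ATAC peak, and its log2 change was -2.40 ± 0.24 (adjusted p = 5.47e-05, edgeR).

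Rora, the nuclear receptor RORα, had a member inside the gene at chr9:69307381-69307522, 2547 bp from an ATAC peak. It rose from 5.78, 6.70 and 5.82 FPKM in WT to 15.9, 15.7 and 10.7 FPKM in CAT, with a log2 change of 1.19 ± 0.19 (adjusted p = 6.93e-04, edgeR). Ets1, needed for T cell survival and differentiation, had one inside at chr9:32705146-32705287, 882 bp from an ATAC region that held another TCF1 peak. It stood at 437, 554 and 548 FPKM in WT and 634, 649 and 734 FPKM in CAT, with a log2 change of 0.38 ± 0.11 (adjusted p = 0.0144, edgeR). The groups did not overlap for either gene, and the Ets1 call was lost in limma on FPKM, with adjusted p of 0.0729 to 0.0758.

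Bcl11b, a zinc finger factor of T cell commitment, had 2 members inside the gene, 1122 and 2572 bp from an ATAC peak in WT1. In CAT1 and CAT2 the nearest peaks were 8760 bp or more away, and for the second member it was 9552 bp in WT3. The RNA levels of Bcl11b were 54.7, 60.9 and 60.8 FPKM in WT and 51.8, 48.7 and 66.7 FPKM in CAT. The groups overlapped, and the log2 change of -0.10 ± 0.12 did not pass (adjusted p = 0.528, edgeR). Without CAT replicate 3, the highest library, it was -0.26 and passed (adjusted p = 0.0296, edgeR), and without the CAT replicates 1 and 2 in turn it was -0.03 and -0.02.

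The other lists had no member within 5 kb of a gene. These lists too were drawn up with results of these data known, and over all genes tested 25.5% rose and 23.5% fell. Of 10 TCF and LEF factors and Wnt targets 9 were tested, 4 rose and 1 fell, with a median log2 change of -0.10, and 6 had a TCF1 peak inside an ATAC peak. Of 16 regulatory T cell genes 12 rose and 3 fell, with a median of 1.13, and 12 had such a peak. Of 21 cytokines, cytotoxic genes and receptors 18 were tested, 10 rose and 4 fell, with a median of 1.36, and 1 had such a peak. Gzmb of this last list, the gene of the cytotoxic protease granzyme B, had 1 member 21425 bp away, at chr14:56283759-56283900. The 50 kb window that took it in was set after the values were seen. Of the 2 TCF1 peaks within 50 kb of Gzmb, the other was inside all 5 ATAC lists. Gzmb stood at 10.4, 5.54 and 6.35 FPKM in WT and 1339, 1015 and 609 FPKM in CAT, far apart, with a log2 change of 7.06 ± 0.39 (adjusted p = 1.84e-06, edgeR).

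The largest falls among genes near members were led by Tbc1d4, the Rab GTPase-activating protein that controls glucose transporter traffic. It stood at 80.9, 82.2 and 74.1 FPKM in WT and 1.75, 2.34 and 3.29 FPKM in CAT, groups far apart, with a log2 change of -5.00 ± 0.22 (adjusted p = 4.82e-07, edgeR). Its member, chr14:101478027-101478168, was inside the gene and 318 bp from an ATAC peak. The ATAC region nearest to this member was called in all 5 libraries and held another TCF1 peak. Pecam1, the adhesion molecule CD31, had its only TCF1 peak inside the gene at chr11:106681142-106681283, 6128 bp from an ATAC peak. It stood at 51.8, 51.9 and 53.6 FPKM in WT and 15.2, 17.9 and 20.3 FPKM in CAT, with no overlap and a log2 change of -1.57 ± 0.11 (adjusted p = 6.49e-06, edgeR).

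Clec2d, a lectin-like ligand of an inhibitory NK cell receptor, also had no other TCF1 peak, and its member lay downstream at chr6:129187552-129187693, 1151 bp from an ATAC peak. It stood at 640, 751 and 629 FPKM in WT and 256, 275 and 335 FPKM in CAT, a clear separation with a log2 change of -1.27 ± 0.11 (adjusted p = 2.48e-05, edgeR). Lrig1, a negative regulator of growth factor receptors, had a member at chr6:94697176-94697317, 1971 bp from an ATAC peak, in a span shared with Slc25a26. It stood at 90.1, 96.9 and 91.7 FPKM in WT and 19.1, 21.0 and 38.2 FPKM in CAT, all CAT values being lower, with a log2 change of -1.80 ± 0.28 (adjusted p = 6.35e-04, edgeR).

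Ift80, a component of the intraflagellar transport machinery, had a member inside the gene at chr3:69002987-69003128, 1233 bp from an ATAC peak. It stood at 182, 233 and 193 FPKM in WT and 52.0, 80.0 and 137 FPKM in CAT, with a log2 change of -1.21 ± 0.25 (adjusted p = 0.00356, edgeR). Rgs10, a GTPase-activating protein for G protein subunits, had one downstream at chr7:128372486-128372627, 1651 bp from an ATAC peak. It stood at 336, 286 and 335 FPKM in WT and 91.8, 123 and 224 FPKM in CAT, with a log2 change of -1.07 ± 0.30 (adjusted p = 0.0162, edgeR). The groups did not overlap for either gene, and the Rgs10 call was lost without CAT replicate 2 or WT replicate 3, with adjusted p of 0.0568 to 0.0572.

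The largest rises were those of Kif23, Gadd45g and Adk. Kif23, a kinesin of cytokinesis, had a member upstream of the gene at chr9:61947264-61947405, 137 bp from an ATAC region that held another TCF1 peak. It stood at 1.83, 1.81 and 1.70 FPKM in WT and 9.42, 10.7 and 6.42 FPKM in CAT, with no overlap and a log2 change of 2.32 ± 0.18 (adjusted p = 1.29e-05, edgeR). Gadd45g, a stress-induced regulator of growth arrest, had one upstream at chr13:51844933-51845074, 563 bp from an ATAC region that held another TCF1 peak. It stood at 10.1, 4.63 and 5.76 FPKM in WT and 38.2, 20.5 and 34.6 FPKM in CAT, the lowest CAT library being above the highest WT library, with a log2 change of 2.30 ± 0.21 (adjusted p = 2.82e-05, edgeR). Adk, which phosphorylates adenosine, had a member inside the gene at chr14:21078524-21078665. The member was 20 and 11 bp from an ATAC peak in WT1 and WT2 and 2019 bp or more in the other lists. Adk stood at 42.4, 37.7 and 33.7 FPKM in WT and 138, 173 and 212 FPKM in CAT, well apart. Its log2 change was 2.19 ± 0.16 (adjusted p = 7.93e-06, edgeR).

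Vmp1, a membrane protein of the endoplasmic reticulum needed for autophagy, had a member at chr11:86652575-86652716 that lay 863 bp from a peak in CAT2 and 27866 bp or more from any peak in the other lists. It stood at 55.8, 63.3 and 65.6 FPKM in WT and 155, 183 and 169 FPKM in CAT, with no overlap and a log2 change of 1.43 ± 0.08 (adjusted p = 1.84e-06, edgeR). Cish, a feedback inhibitor induced by STAT5, had one downstream at chr9:107303140-107303281, 2875 bp from an ATAC peak. It stood at 37.8, 34.4 and 33.1 FPKM in WT and 96.8, 87.7 and 93.8 FPKM in CAT, again with no overlap and a log2 change of 1.40 ± 0.08 (adjusted p = 1.82e-06, edgeR).

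Slc48a1, a haem transporter, had a member beside the gene at chr15:97780874-97781015, 1890 bp from an ATAC peak, and Hdac7 overlaps its span. It stood at 14.2, 14.8 and 13.1 FPKM in WT and 60.5, 55.6 and 30.9 FPKM in CAT, with a log2 change of 1.80 ± 0.22 (adjusted p = 1.69e-04, edgeR). Clcn5, an endosomal chloride and proton exchanger, had its only TCF1 peak upstream at chrX:7322473-7322614, 2900 bp from an ATAC peak. It stood at 1.38, 2.04 and 1.55 FPKM in WT and 5.90, 5.11 and 4.66 FPKM in CAT, with a log2 change of 1.65 ± 0.17 (adjusted p = 5.27e-05, edgeR). For both genes all CAT libraries were above all WT libraries.

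**Figure D5:**
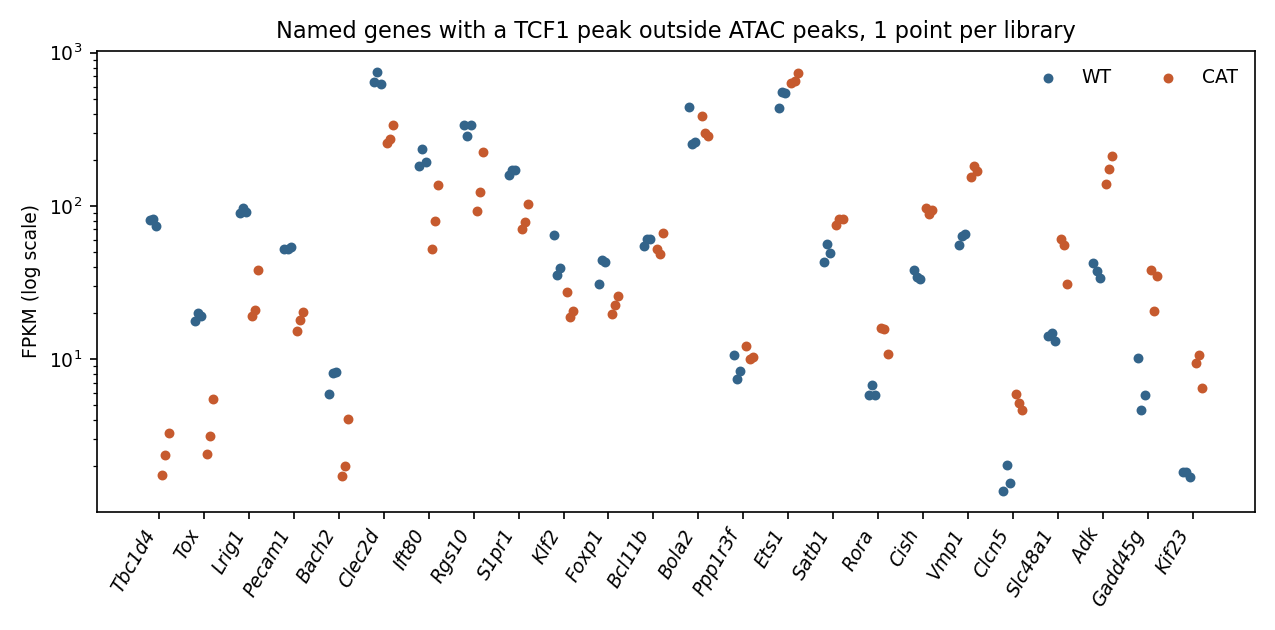
FPKM (y, log scale) of 24 named genes with a TCF1 peak outside ATAC peaks in each RNA library (points, 3 WT and 3 CAT), ordered by log2 change. WT and CAT points are apart for Tbc1d4 at the left and Kif23 at the right and mix for Bcl11b, Bola2 and Ppp1r3f in the middle.

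The genes of the printed sequences moved little, apart from Traf1. Traf1, an adaptor of TNF receptor signalling, had the member 885 bp from an ATAC region that held another TCF1 peak. It stood at 70.7, 62.1 and 67.4 FPKM in WT and 40.9, 36.2 and 36.0 FPKM in CAT, with no overlap and a log2 change of -0.80 ± 0.08 (adjusted p = 3.80e-05, edgeR). The member of Kmt2d, a histone H3 lysine methyltransferase, held the CTTTG letters. It lay 30 bp from an ATAC peak in WT2, 231 to 526 bp in WT1, CAT1 and CAT2 and 9576 bp in WT3. Kmt2d stood at 4.70, 4.32 and 4.16 FPKM in WT and 3.99, 3.18 and 3.83 FPKM in CAT. Its log2 change of -0.25 ± 0.10 did not pass (adjusted p = 0.0598, edgeR), although the groups did not overlap. It passed with replicate number as a block (adjusted p = 0.0477), without CAT replicate 3 (0.0106) and without WT replicate 1 (0.0400), and over all the alternatives the adjusted p ran from 0.0106 to 0.197. Fmnl1, a formin that shapes actin, and Acsf3, a mitochondrial acyl-CoA synthetase, had overlapping groups and log2 changes of -0.06 ± 0.10 (adjusted p = 0.63, edgeR) and 0.10 ± 0.17 (adjusted p = 0.649, edgeR).

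Bola2, a partner of glutaredoxins in iron handling, was 1 of the 3 genes with 3 members. Its levels were 443, 252 and 260 FPKM in WT and 383, 299 and 287 FPKM in CAT, so the groups overlapped and the log2 change of 0.12 ± 0.09 did not pass (adjusted p = 0.285, edgeR). Bach2 and Ppp1r3f were the others with 3 members. The 19 genes with 2 members tied, so none of them was taken by count.

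Of the members, 62 had no gene of the RNA table within 5 kb. These included 2 inside Celf2, an RNA-binding protein of T cells whose RNA estimate failed, and 2 inside the T cell receptor alpha locus. In that locus chr14:54200241-54200382 lay 2244 bp and chr14:54203836-54203977 492 bp from the nearest ATAC peak, in WT1 and WT2, while in WT3, CAT1 and CAT2 the nearest peaks were 18424 bp or more away. No RefSeq gene of any kind was within 5 kb of 34 members.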

How the data were processed

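The TCF1 and ATAC peak lists and the RNA table were used as deposited. Build mm10 and the tools Bowtie, HOMER and MACS2 are listed in the submitters' processing notes, and no peak calling threshold or RNA aligner is given in the sources used here. ATAC peaks were called per library. Per the file headers, the authors deposited Cuffdiff estimated counts, of which 92.5% were whole, and FPKM values that Cuffdiff scaled between libraries. The read depth of the peak libraries is unknown, and the input was not analysed. A member overlaps no ATAC peak by 1 bp or more, and distances run between nearest ends. Gene spans came from RefSeq (GRCm38.p6) by symbol, matched for 23131 of 24300 genes, each extended by 5 kb. Left out were 25 identifiers turned into dates (0.265 to 0.281% of fragments) and 13 genes with a failed estimate.

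Estimated counts were rounded and tested with edgeR 4.0.16 (TMM, filter by expression, quasi-likelihood, Benjamini-Hochberg adjustment over 13193 genes) in R 4.3.3, checked on simulated data. DESeq2 1.42.0 and limma 3.58.1, on log2(FPKM + 1) and log2(FPKM + 0.1), were alternatives. Named genes are the 8 largest rises and 8 largest falls near members with at least 5 FPKM in either group, genes with 3 members and every gene of the 5 lists with a member. Tcf7, Ctnnb1, genes of the printed sequences and list genes within 50 kb were added after their values were seen. Members and lists were chosen with earlier results of these data known.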

Additional observations from a re-analysis of the deposited data

How the results depend on the processing

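Counting a TCF1 peak as open within 1000 bp of an ATAC peak left 144 members in place of 291, and reading the CAT lists alone gave 835. Leaving out each ATAC library in turn gave 299 to 366. A start within 5 kb rather than 1 kb took in 45.4% of members, level with the 45.6% of TCF1 peaks in 1 to 4 ATAC lists, and a level of 5 FPKM rather than 1 was met by 74.9% of genes near members. Where spans were not extended 34 of 151 tested genes near members rose (22.5%) and 47 fell (31.1%), and for the gene of the nearest start within 100 kb 50 of 163 rose (30.7%) and 40 fell (24.5%), so the balance turned between these rules, beside 25.5% and 23.5% of all genes. Of 80 tested genes with no other TCF1 peak 20 rose (25.0%) and 21 fell (26.25%). Of 114 tested genes near members over 1000 bp from open chromatin 29 rose (25.4%) and 33 fell (28.9%). Over all genes limma called 2099 rising and 1834 falling on log2(FPKM + 1) and 2093 and 1815 on log2(FPKM + 0.1). Leaving out each RNA library gave 2688 to 3583 rising and 2417 to 3364 falling over all genes, and 51 to 62 and 53 to 76 near members. With no filter on low counts the median log2 change of all genes moved to -0.22. With replicate number as a block, 3349 genes rose and 3035 fell over all genes and 58 and 66 near members, and same-numbered libraries correlated at 0.0996, -0.0475 and 0.0987, so the numbers were not read as pairs. Across 33 named genes no alternative reversed a called change. Of their alternative values 410 were the same as the main fit in being called or not called. A call was lost in 15, for Tcf7, Ets1, Ppp1r3f and Rgs10 as given above, and gained in 4, for Bcl11b and Kmt2d. The causes were not tested.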

Other observations

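The place of a peak in the deposited TCF1 list, whose order is not explained in the sources used here, went with membership. With the list cut into 10 equal stretches, 2.72% of peaks in the first were members and 8.01% in the last, with 3.23%, 3.24%, 4.08%, 3.75%, 5.27%, 6.80%, 6.98% and 5.44% between.

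Inside Kcnn4, with 2 members, RNA stood at 110, 72.4 and 84.1 FPKM in WT and 79.7, 47.4 and 60.9 FPKM in CAT, with overlapping groups and a log2 change of -0.48 ± 0.11 (adjusted p = 0.00564, edgeR). Prkcq, the kinase of T cell receptor signalling, also with 2 members, stood at 151, 157 and 141 FPKM in WT and 98.7, 114 and 123 FPKM in CAT, with no overlap and a log2 change of -0.42 ± 0.09 (adjusted p = 0.00528, edgeR). Both were picked after their values were seen.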
